A study of Mus musculus with 12 samples.

Results

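The loci described here are those of 8 genes of the pluripotency network (Pou5f1, Nanog, Sox2, Klf4, Esrrb, Sall4, Tdgf1 and Tet2), each taken as the annotated gene body with 50000 bp on both sides. The genes were chosen by name, and every acetylated region and GLI1 site in these windows was counted. The windows held 55 of the 94481 H3K27ac regions found in either condition and 3 of the 2605 GLI1 sites. The cells were mouse cardiac progenitors of the line GLI1-FTA (strain label A2Lox.cre), differentiated from embryonic stem cells. All samples carried this line, in which GLI1 bears a tag for capture on streptavidin beads. The dox cells received 500 ng/ml doxycycline for 24 hours to overexpress GLI1, the control cells were untreated, and both were harvested on day 6. The 12 samples formed 6 groups of 2: dox and control cells were each used for a pulldown of GLI1, for H3K27ac and for input. Clonality of the line is not given in the sources used here.

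Pou5f1, Nanog and Sox2 encode the transcription factors at the core of the embryonic stem cell network, and Klf4 and Esrrb encode factors of its naive state. Sall4 encodes a zinc finger factor that works with them and stays active in several early embryonic lineages. Tdgf1 encodes Cripto, a co-receptor for Nodal that also acts in early mesoderm, and Tet2 encodes an enzyme that oxidises methylated cytosine. Acetylation of lysine 27 on histone H3 marks active promoters and enhancers. GLI1 is the zinc finger activator at the end of the Hedgehog pathway and binds a short GC-rich motif. Most pluripotency genes lose their active chromatin as stem cells differentiate, although Sox2 and Sall4 have further roles in later tissues.

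Each of the 3 lists was called on pooled replicates, so a value stands for 2 samples and carries no spread between them. Differences between dox and control cells therefore carry no test. Fold enrichment is the authors' ratio of the read pileup at a summit to the local background, with 1 added to both. Overlapping intervals (by 1 bp or more) of the H3K27ac lists were joined into regions, which are dox-only, shared or control-only. For a region in both lists, the ratio is the log2 of dox over control, shifted so that the median shared region of the genome is at 0 (that median was −0.13). A centred ratio of at least 1 in size is described as higher or lower in dox. Intervals in brackets are 95% intervals from the recovered pileups and cover counting error only, with any PCR copies counted as separate reads. Read totals are unknown, and the uniform background of 3.63 reads in dox and 2.83 in control gave a depth ratio of 1.28. Fewer cells with a mark and less mark per cell cannot be told apart in these pooled cells.

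The promoters of 7 of the 8 genes could be read from the RefSeq promoter table (GRCm38.p6, the assembly of mm10), and Sall4 was not among them. Sequences of 4 of them are shown because they span the states found here: Nanog and Pou5f1 without an acetylated region over the promoter, Tdgf1 with less acetylation in dox and Tet2 with more. Each line holds the 250 bases before the outermost start in that table, 5′ to 3′ on the gene's strand. The places are chr6:122707239-122707488 (plus strand) for Nanog, chr17:35505782-35506031 (plus) for Pou5f1, chr9:110946159-110946408 (minus) for Tdgf1 and chr3:133544391-133544640 (minus) for Tet2. Capitals mark motif matches on either strand. The motifs are the Sox part CATTGT, the octamer core ATGCAAA (7 bases) and both in a row with 1 base between them (the Sox-Oct composite). The others are the GLI consensus GACCACCCA and its core CCACCCA.
Nanog: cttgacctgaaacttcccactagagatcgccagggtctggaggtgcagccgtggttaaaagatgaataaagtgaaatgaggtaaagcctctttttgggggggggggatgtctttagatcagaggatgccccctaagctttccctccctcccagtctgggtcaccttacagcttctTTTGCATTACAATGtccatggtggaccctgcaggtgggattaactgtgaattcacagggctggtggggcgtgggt
Pou5f1: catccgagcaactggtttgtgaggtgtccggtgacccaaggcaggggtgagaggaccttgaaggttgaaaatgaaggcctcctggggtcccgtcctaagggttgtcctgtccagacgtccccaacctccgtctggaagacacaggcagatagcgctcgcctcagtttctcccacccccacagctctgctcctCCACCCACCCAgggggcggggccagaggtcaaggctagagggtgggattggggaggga
Tdgf1: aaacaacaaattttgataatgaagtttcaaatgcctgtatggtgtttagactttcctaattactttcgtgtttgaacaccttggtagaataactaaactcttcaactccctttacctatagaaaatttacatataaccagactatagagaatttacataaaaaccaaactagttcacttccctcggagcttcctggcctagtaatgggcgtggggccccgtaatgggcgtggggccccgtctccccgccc
Tet2: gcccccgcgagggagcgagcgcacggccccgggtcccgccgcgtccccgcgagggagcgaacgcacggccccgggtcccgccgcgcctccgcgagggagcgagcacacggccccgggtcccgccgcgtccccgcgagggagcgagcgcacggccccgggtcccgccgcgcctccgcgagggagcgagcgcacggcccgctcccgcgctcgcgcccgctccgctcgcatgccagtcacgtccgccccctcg

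The Nanog promoter held the Sox-Oct composite, whose octamer core and Sox part overlap it. It was the 1 promoter of 17492 with this exact match (0.00572%). The octamer core was in 3.77% and the Sox part in 9.57% of these promoters, and Sox2 held 1 octamer core. The capitals in Pou5f1 are 2 overlapping matches to the GLI core, which 8.34% of promoters held. The full GLI consensus was in 0.154% of promoters and in none of the 7. No match was found in Tdgf1, Tet2, Klf4 or Esrrb. GC content was 42.0% in Tdgf1, 52.0% in Nanog, 62.0% in Pou5f1 and 83.6% in Tet2.

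Acetylation at gene ends differed from gene to gene. Within 1000 bp of an annotated gene end, Tet2 was higher in dox, Tdgf1 was lower, and Sall4 was just under the limit for higher. Nanog, Sox2 and Klf4 lay within the limit, and Pou5f1 and Esrrb had no region in either list. No gene of the 8 had a gene-end region in dox alone (background 2.96%) or in control alone (background 2.21%). Of the 6 genes with a region in both lists, 1 was higher (background over all genes 3.77%) and 1 lower (background 2.05%). Their median ratio was 0.30, against 0.14 over 9761 genes. Across 20376 analysed genes, 47.9% had a gene-end region in both lists and 46.9% in neither.

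**Figure D1:**
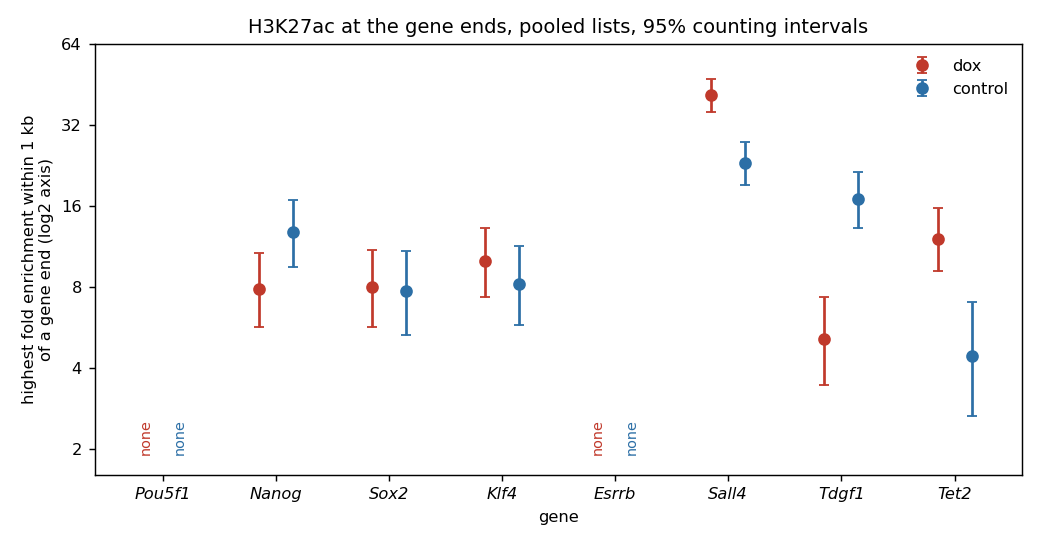
The highest H3K27ac fold enrichment within 1 kb of either end of each gene (log2 axis), in dox cells (red, left) and control cells (blue, right), with 95% counting intervals on single pooled lists. Tet2 stands at 12.1 in dox and 4.44 in control, Tdgf1 at 5.12 and 16.96, and Pou5f1 and Esrrb have no region.

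Sall4 had the strongest gene-end signal of the 8 in both lists. Fold enrichment was 41.3 (35.8 to 47.4) in dox and 23.1 (19.1 to 27.7) in control. The region lay at chr2:168764612-168767267, over the right end of the gene (168748332 to 168767201). Right is by coordinate, since the strand and start of Sall4 were not in the promoter table. Whether this end is the start of the gene was therefore not settled here. The pileup of the region was 200 reads in dox and 115 in control, and the centred ratio was 0.97 (0.63 to 1.31). Among all intervals of its list it stood at the 99.7th percentile in dox and at the 95.5th in control. A smaller shared region beside it had 4.69 in dox and 3.66 in control, with a ratio of 0.49 (−0.53 to 1.58).

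Tet2 was the gene with the highest gene-end ratio. The region chr3:133543089-133544993 covered the annotated start at 133544390 and the promoter shown above. Fold enrichment was 12.1 (9.17 to 15.7) in dox and 4.44 (2.65 to 7.05) in control, a centred ratio of 1.58 (0.75 to 2.48). The control value rested on a pileup of 16 reads, against 55 in dox. The region stood at the 87.8th percentile of the dox list and at the 48.8th of the control list.

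Tdgf1 was the gene with the lowest. Its main region, chr9:110945965-110949287, covered the start at 110946158 and the AT-richer promoter shown above. Fold enrichment was 5.12 (3.46 to 7.32) in dox and 16.96 (13.2 to 21.4) in control, a centred ratio of −1.60 (−2.29 to −0.94). The pileup was 28 reads in dox and 68 in control. A second gene-end region inside Tdgf1 was in the control list alone, with a fold enrichment of 4.70.

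Klf4 and Sox2 kept a moderate signal close to their starts. At Klf4 the region chr4:55532698-55533441 began 223 bp upstream of the start and had 9.94 in dox and 8.21 in control. Its ratio of 0.41 (−0.27 to 1.09) did not differ from 0 beyond counting error. At Sox2 the region chr3:34650058-34651659 began 63 bp inside the gene and had 7.99 in dox and 7.70 in control. The ratio was 0.19 (−0.55 to 0.93), again with 0 inside the interval. A weak control-only region of 2.50 lay 370 bp upstream of the Sox2 start.

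At Nanog the gene-end region lay at the downstream end and not over the promoter. It began 49 bp past the gene (chr6:122714682-122717034) and had 7.87 in dox and 12.8 in control, a ratio of −0.57 (−1.22 to 0.07). No region of either list covered the Nanog promoter or those of Pou5f1, Esrrb and Sox2, taken as the 250 bases before the start. When 5000 bp around gene ends were taken, Nanog had 10.6 in dox and 19.8 in control. Pou5f1 then had a region of 5.19 upstream of its start and Esrrb one of 2.81 near its downstream end, both in dox alone.

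The order of the gene-end levels was not the same in the 2 conditions. In dox the order from the top was Sall4, Tet2, Klf4, Sox2, Nanog and Tdgf1. In control it was Sall4, Tdgf1, Nanog, Klf4, Sox2 and Tet2. In dox the interval of Sall4 overlapped no other, while each of the other genes overlapped its neighbours in the order. In control every neighbouring pair overlapped, Sall4 and Tdgf1 included.

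Away from the gene ends, most regions present in both conditions had a ratio below 0. Few passed the limit for lower, and several had counting intervals that held 0. The 46 distal regions were 19 dox-only (background 39.4%), 14 shared (background 30.6%) and 13 control-only (background 30%). Of the 14 distal shared regions in the windows, 13 had a ratio below 0, against 55.1% of the 24544 shared regions that lay away from every gene end in the genome. Their median was −0.60, against −0.09 over those regions of the genome. It was −0.30 without the Nanog window and −0.34 with windows of 150000 bp on both sides. Regions of a locus share their surroundings and are not replicates. Distal regions here lie away from the ends of the named gene, while the background leaves out the ends of every gene. Some of them lay at another gene's end. Without those, 41 distal regions were 18 dox-only, 11 shared and 12 control-only. Of these 11 shared regions, 10 were below 0, with a median of −0.75. Of the 14, 3 were lower in dox (background 10.8%) and 1 was higher (background 7.92%). The 12 distal shared regions outside the Sall4 window were all below 0, from −1.67 to −0.12. They belonged to the windows of Nanog (5), Pou5f1 (3), Esrrb (2) and Tdgf1 (2), since Sox2, Klf4 and Tet2 had none.

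**Figure D2:**
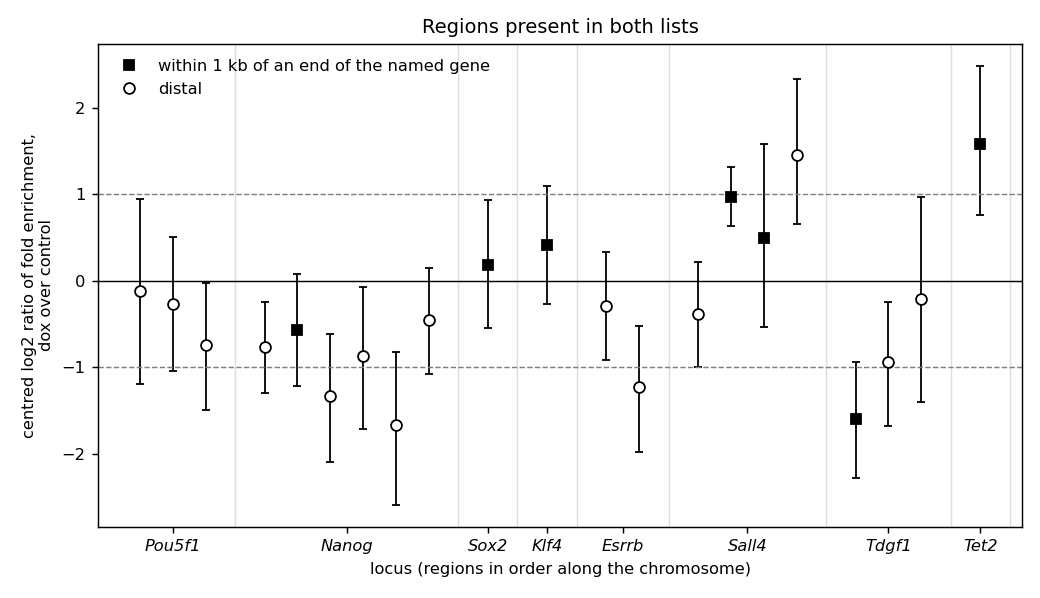
Centred log2 ratio of H3K27ac fold enrichment, dox over control, for each of the 21 regions present in both lists, with 95% counting intervals; filled squares lie within 1 kb of an end of the named gene and open circles are distal. Dashed lines mark ratios of 1 and −1; all 5 distal regions of Nanog lie below 0, and the region highest among the distal ones is at Sall4, at 1.46.

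Nanog had the largest acetylated surroundings in control cells. Its window held intervals of 9762 bp in dox and 17378 bp in control. Over the windows of all genes the medians were 3877 bp in dox and 3472 bp in control. The strongest region, chr6:122701950-122704009, lay 3480 bp upstream of the start, with 10.6 in dox and 19.8 in control. Its ratio was −0.77 (−1.30 to −0.25).

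On the far side of Nanog, 4 shared regions lay within the neighbouring Slc2a3, a glucose transporter gene. The one at chr6:122760264-122762726 had 3.27 in dox and 11.4 in control, the lowest ratio of the 55 regions at −1.67 (−2.59 to −0.83). The one at chr6:122740222-122743297 had 5.19 in dox and 14.3 in control, a ratio of −1.33 (−2.10 to −0.61). The other two had ratios of −0.88 (−1.71 to −0.07) and −0.46 (−1.08 to 0.15). A region of 4.32 was in dox alone and one of 4.58 in control alone. No region lay farther upstream than the strongest one within the window. The gene that any of these regions acts on was not measured.

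Esrrb, which spans chr12:86361117-86521628, had distal regions both upstream of and inside the gene. The region chr12:86394284-86396484, 33167 bp into the gene, had 4.72 in dox and 12.1 in control. Its ratio was −1.23 (−1.99 to −0.52), and a neighbouring region of 4.78 was in the control list alone. Upstream of the gene, a region with 7.84 in dox and 10.6 in control had a ratio of −0.30 (−0.92 to 0.33), and it was the strongest Esrrb region in dox. A second upstream region of 3.66 was in control alone. The remaining intragenic regions were weak and in dox alone, at 3.15 and 2.81.

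The acetylation around Tdgf1 was narrower in dox. Intervals in the window covered 4063 bp in dox and 9395 bp in control. Next to the gene-end region, chr9:110949460-110952154 had 5.24 in dox and 11.0 in control, a ratio of −0.94 (−1.68 to −0.24). It reached the end of Lrrc2, a neighbouring gene of a leucine-rich repeat protein. Beyond it, 3 regions at or in Lrrc2 were control-only, at 7.20, 3.66 and 5.57. Apart from a weak shared region near the edge of the window, with 2.89 in dox and 3.66 in control, the Tdgf1 window held no others.

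The Pou5f1 window had few regions, and its shared ones lay at or in neighbouring genes. Those at the ends of Tcf19 and Cchcr1 had ratios of −0.12 (−1.20 to 0.94) and −0.27 (−1.04 to 0.51). One in Cdsn, a gene of skin cell adhesion, had 5.31 in dox and 9.78 in control, a ratio of −0.75 (−1.50 to −0.02). A region 3337 bp upstream of the Pou5f1 start was dox-only, at 5.19 and with a pileup of 23 reads. A second dox-only region of 4.06 lay within Tcf19.

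Klf4 and Sox2 had no distal region in common between the lists. Upstream of Klf4, 3 regions between 55541256 and 55543898 on chromosome 4 were in control alone, at 4.32, 2.61 and 7.05. At Sox2, 3 short regions between 34678618 and 34679823 on chromosome 3 were in dox alone, at 2.56, 3.24 and 3.67, and 1 upstream region of 3.67 was in control alone. The Tet2 window held 2 further regions, both inside the gene and in dox alone, at 3.67 and 3.81.

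**Figure D3:**
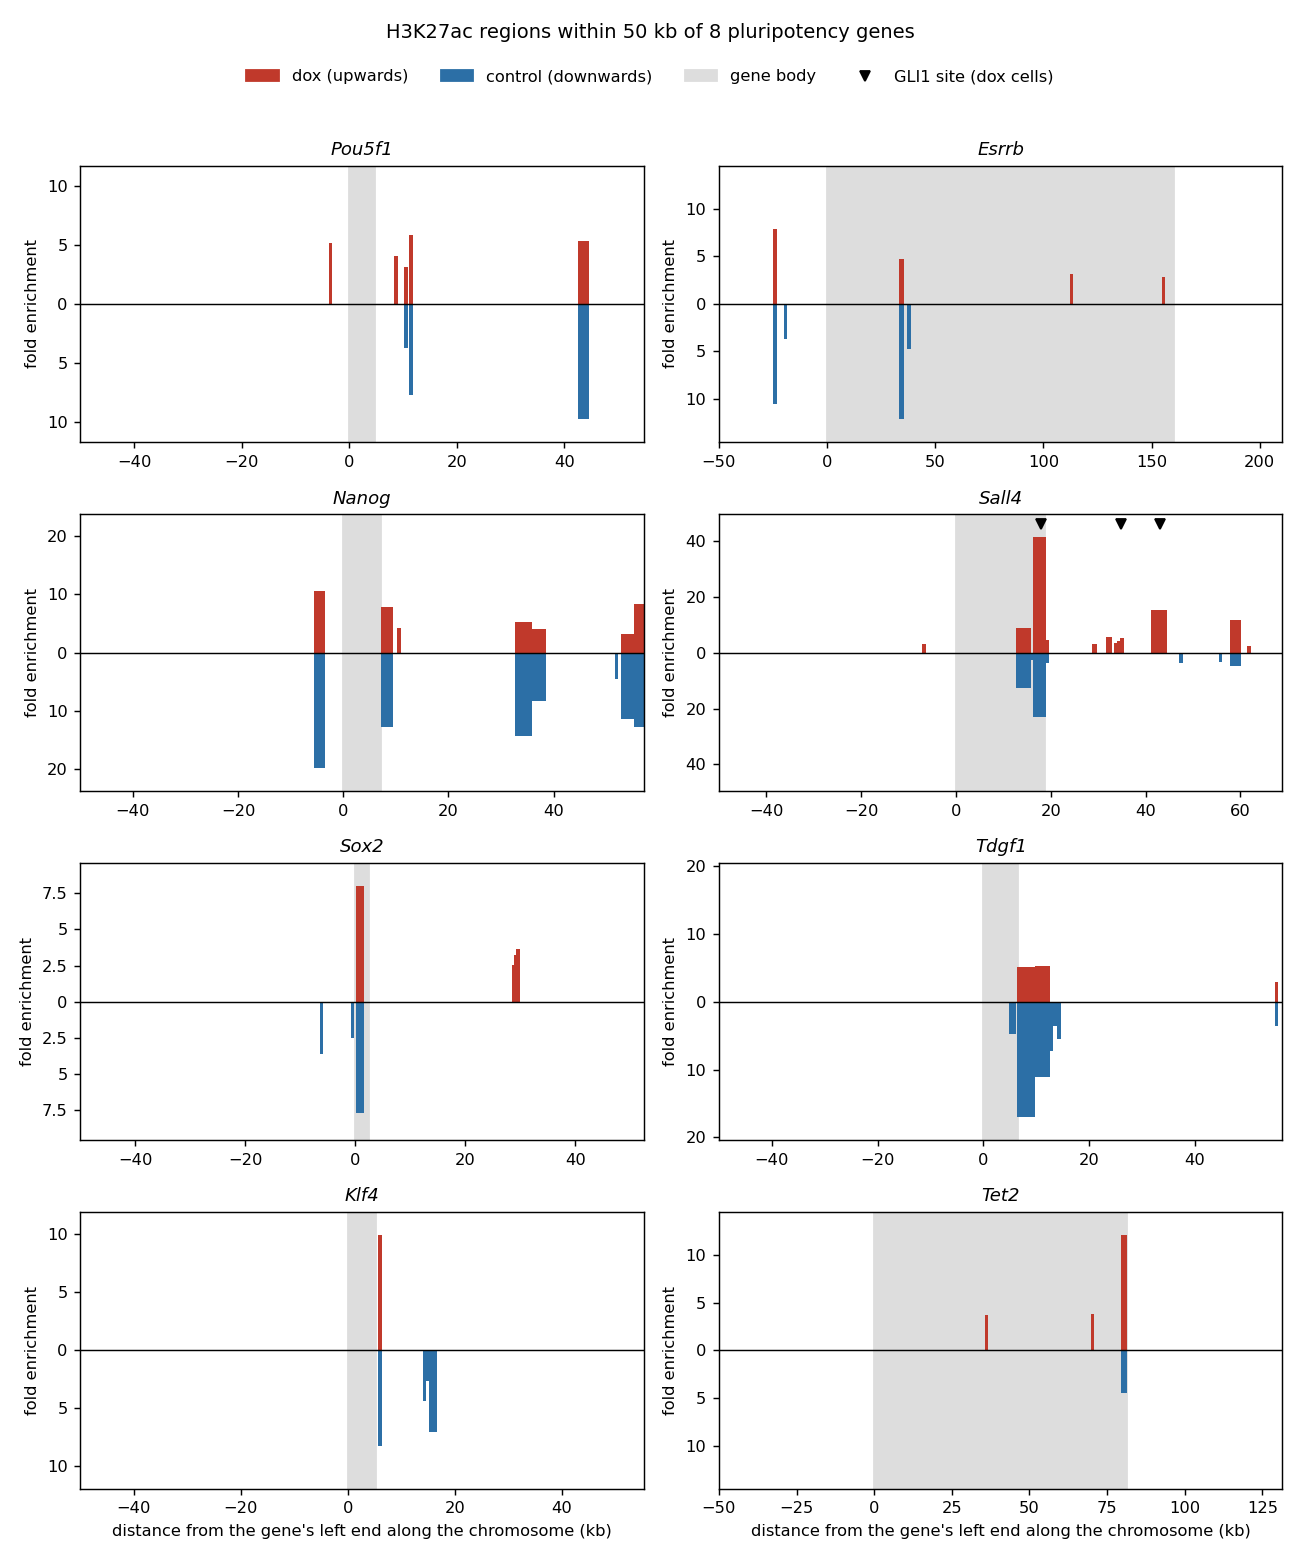
H3K27ac fold enrichment by distance from the gene's left end (kb) for the 8 genes with 50 kb on both sides: dox upwards in red, control downwards in blue, gene body in grey, GLI1 sites as triangles, with short regions widened to stay visible. The triangles are all at Sall4, where dox bars reach 41.3; in the Nanog and Tdgf1 panels the control bars are the longer ones.

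GLI1 sites lay in the Sall4 window and in no other of the 8. It held 3 sites, and 1 of the 8 genes thus had a site, against a background of 13.4% of all genes; 0.991% of all genes had at least 3. The first site, chr2:168766318-168766418, lay inside the gene, 833 bp from its right end and in the strong gene-end region. The second, chr2:168783019-168783119, lay 15868 bp and the third, chr2:168791312-168791412, 24161 bp beyond that end, measured from the centres of the sites. Their −log10 q values of 27.9, 19.8 and 21.3 ranked 1426, 1875 and 1786 of 2605, in the weaker part of the list. All 3 lay in a dox H3K27ac peak (background 75%) and 1 in a control peak (background 25%). The site sequences are not shown, and no list of sites from control cells was used here.

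The acetylated regions beyond the right end of Sall4 appeared mainly in dox. Without the strand of the gene, they could not be placed upstream or downstream of it. The second and the third site lay in regions found in dox alone. The region of the third, chr2:168789517-168792887, had a fold enrichment of 15.1 from a pileup of 69 reads, the strongest region of the windows found in 1 list only. The region of the second had 5.12, and 5 more dox-only regions between 168777211 and 168782866 had 3.24 to 5.51. Farther out, chr2:168806148-168808460 held no site and had 11.8 in dox and 4.70 in control, a ratio of 1.46 (0.65 to 2.33). It was the 1 distal shared region above 0. Inside the gene, chr2:168760899-168764233 had 8.86 in dox and 12.7 in control, a ratio of −0.39. Control-only regions of the window were weak, from 2.71 to 3.66. Intervals covered 16121 bp in dox and 7608 bp in control.

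Nearest sites of the other genes were distant. They lay 132297 bp from Tet2, 164934 bp from Tdgf1, 208439 bp from Sox2 and 417377 bp from Esrrb. For Pou5f1, Klf4 and Nanog the nearest site was at least 1255319 bp away.

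Counted over all 8 windows, 19 regions were in dox alone (background 35.5% of all regions), 21 in both lists (background 37.5%) and 15 in control alone (background 27.1%). Of the 21, 2 were higher in dox (background 6.78%) and 4 lower (background 8.31%). Of the 19, Sall4 had 9, and without its window 10 regions were in dox alone and 12 in control alone. When peaks with a −log10 q under 10 were dropped, 5 dox-only and 7 control-only regions were counted, so the order turned. Shares over all regions at this cut are not given here, so the turn cannot be read as a trait of these loci. The 9 regions at gene ends were 7 shared and 2 control-only. Shares over gene-end regions alone are not given here, and those over all regions are no measure for these counts. The median gene of the genome had 1 dox-only, 3 shared and 1 control-only region in such a window. Intervals in the 8 windows covered 41896 bp in dox and 47383 bp in control. The whole lists covered 66.0 Mb in dox and 59.9 Mb in control.

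**Figure D4:**
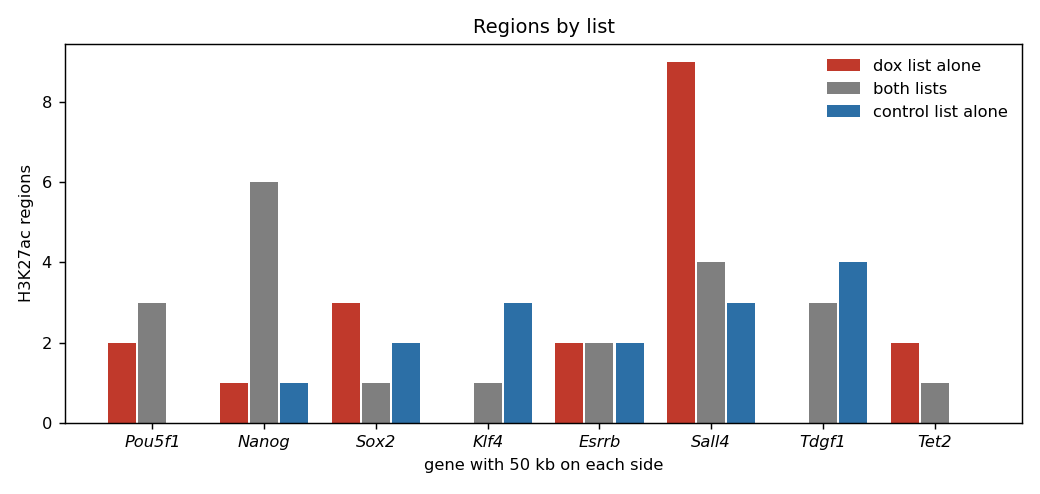
Number of H3K27ac regions in each window (gene with 50 kb on both sides), in the dox list alone (red), in both lists (grey) and in the control list alone (blue). Sall4 has 9 dox-only regions, while Klf4 and Tdgf1 have none and 3 and 4 control-only regions.

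A wider list of 43 pluripotency genes was read at gene ends in the same way, and 40 could be analysed; Dnmt3l, Zic2 and Lin28b lay where running peak numbers skip. A region was in both lists for 15 (background 47.9%), in the dox list only for 1 (background 2.96%) and in the control list only for 2 (background 2.21%). No region was found for 22 (background 46.9%). None of the 15 was higher in dox (background 3.77%) and 1 was lower (background 2.05%), with a median ratio of 0.25 against 0.14 over all genes. It was Tbx3, a T-box gene active also in the heart, with 4.72 in dox and 11.6 in control (−1.17, −1.96 to −0.42). Klf2 was in dox alone at 5.19. Klf5 and Nodal, which encodes the ligand that Cripto helps to bind, were in control alone at 5.74 and 8.09. Of the 40 genes, 11 had at least 1 GLI1 site in the gene or within 50000 bp of it (background 13.4%).

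The wider list was also read by subgroup, where 46.9% of all genes had no gene-end region in either list; the counts of the subgroups were not tested against each other. Of 20 genes of the naive state, 14 had no gene-end region in either list, Zfp42, Dppa3 and Prdm14 among them. Of 11 genes of the primed state and exit, 8 had none, Otx2 and Fgf5 among them. All 9 general regulators had a region in both lists (background 47.9%), with ratios from −0.74 at Myc to 0.51 at Tet1. Lin28a, an RNA-binding protein gene, had 43.9 in dox and 36.0 in control. Tet1 and Tet3, the relatives of Tet2, had ratios of 0.51 (−0.19 to 1.21) and 0.37 (−0.05 to 0.80).

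**Figure D5:**
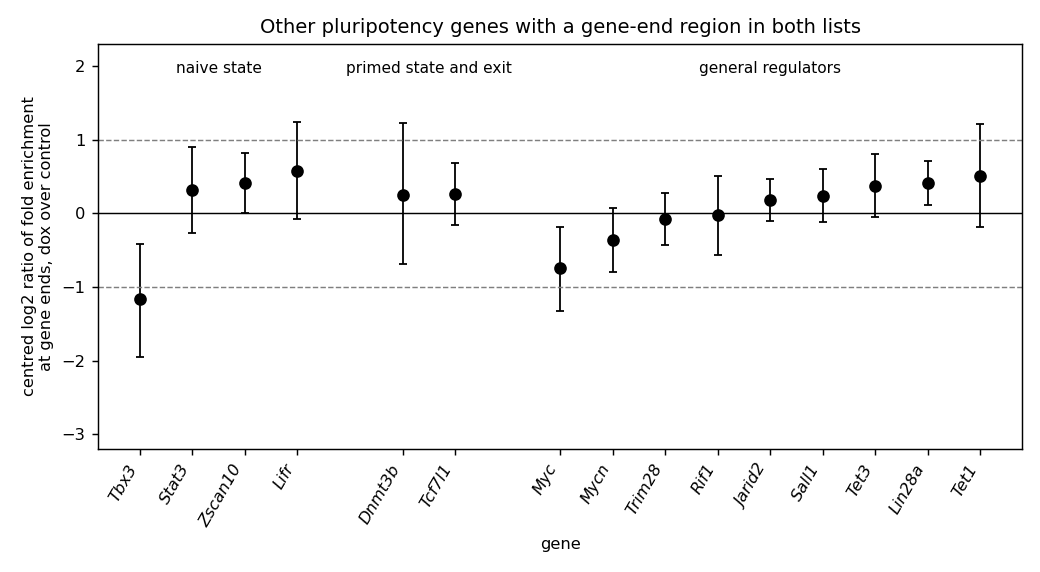
Centred log2 ratio of gene-end H3K27ac, dox over control, for the 15 other pluripotency genes with a region in both lists, in 3 groups, with 95% counting intervals; dashed lines mark ratios of 1 and −1. Tbx3 lies below −1, at −1.17, and no gene lies above 1.

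The label of the cells was set against acetylation at marker genes, since no RNA data were used here. Of 10 cardiac markers, Isl1, Gata6, Hand2 and Tnnt2 had a gene-end region in both lists (background 47.9%). Myl7 and Actc1 had one in control alone (background 2.21%). Gata4, Tbx5, Mef2c and Nkx2-5 had one in neither (background 46.9%). Of the 4 cardiac markers with a region in both lists, 2 were lower in dox (background 2.05%). Tnnt2, which encodes cardiac troponin T, had 3.74 in dox and 10.4 in control (−1.35, −2.24 to −0.51). Hand2, a heart transcription factor gene, had 10.8 in dox and 24.5 in control (−1.05, −1.56 to −0.55). Isl1 had 21.0 in dox and 20.2 in control (0.19, −0.24 to 0.61), and Gata6 20.5 and 26.7 (−0.25, −0.66 to 0.16). Of 4 analysed neural markers, Nes alone had a region, and Sox1, Pax6 and Olig2, which share tissues with Sox2, had none (background 46.9%). Of 6 endoderm markers, Foxa2 had a region in dox alone (background 2.96%), at 34.0. Cxcr4 had one in control alone (background 2.21%), at 5.45, and 4 markers had none (background 46.9%). Of 5 endothelial markers, Kdr, Cdh5 and Tal1 had a region in dox alone (background 2.96%), at 2.82, 3.13 and 4.75. Pecam1 had 11.2 in dox and 11.7 in control. In the dox list Kdr stood at the 11.1th percentile, Cdh5 at the 20.1th and Tal1 at the 60.6th. Sox18, an endothelial factor gene of the Sox family, had 33.1 in dox and 3.56 in control, a ratio of 3.35 (2.67 to 4.10). Counted in the gene and in flanks as wide as those of the windows above, Foxa2 and Sox18 had 2 GLI1 sites each. Gata6, Hand2, Nkx2-5 and Afp, an endoderm marker without a region, had 1 each. At least 1 site was found for 3 of 10 cardiac, 2 of 6 endoderm, 1 of 5 endothelial and 0 of 4 neural markers. The share over all genes was 13.4%. Whether the higher acetylation of Foxa2 and Sox18 in dox went with their sites or with a change in cell types was not tested. The part of a shift in cell types in the differences at the pluripotency genes was not tested.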

How the data were processed

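H3K27ac and GLI1 binding were measured by chromatin immunoprecipitation and sequencing. Per the submitters' processing notes, the tools were MACS2 2.1.1, Bowtie2 2.3.2 and SAMtools 1.5 and the build mm10, without roles. Per the deposited names, the authors pooled replicates and removed blacklisted regions. The deposited H3K27ac values per summit are a fold enrichment (a ratio), a −log10 p, a −log10 q and a score, of which the score was not used. The deposited GLI1 sites are windows of 101 bp with a −log10 q, replicated and with a Gli motif per their name.

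Pileups were recovered from fold enrichment and −log10 p within 0.01 for 99.9% of the dox summits and 99.96% of the control summits. Gene ends came from a RefSeq table (GRCm38.p6). The 1511 genes with an end in a stretch where running peak numbers skip were left out, and no such stretch lay in the 8 windows. Ratios, merging and intervals were computed in Python 3.11.15 with pandas 2.3.3 and SciPy 1.17.1 and tested on simulated data. Named are all 8 genes, with their strongest and most changed regions and those with a GLI1 site, and genes of the wider list past the limit or in 1 list alone; examples at no region were chosen after their values were seen. The members, lists and tests were chosen with earlier results of these data known. Some genes of the wider and marker lists are not reported here and are in none of their counts. Alternatives are in the closing section.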

Additional observations from a re-analysis of the deposited data

How the results depend on the processing

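Dropping peaks with a −log10 q under 10 left 5 dox-only and 7 control-only regions, with windows of 150000 bp on both sides 37 and 33 and 5 GLI1 sites, and without the Sall4 window 10 dox-only regions. Leaving out each other window in turn, using windows of 20000 bp, a larger required overlap or a dox list scaled to the control depth kept both counts within 1.5 times. The median ratio of distal shared regions stayed between −0.77 and −0.30 under the alternatives tried, the highest value being that without the Nanog window. The gene-end ratios stayed within their counting intervals and kept their sign under no centring, width-weighted means, wider gene ends, separate intervals, stricter peaks (no value for Tet2) and pileups without background, where Sall4 had 0.71. No paired analysis was possible because each list pools the replicates of its group, and for the same reason no replicate could be left out. Depth limits the weak regions: a region absent from a list may lie just under its threshold.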

Other observations

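Beyond 50000 bp from the genes, more acetylation specific to 1 list was found. On the left side of Tet2, a region at chr3:133330230-133332913 was dox-only at 21.0-fold enrichment and held a GLI1 site with a −log10 q of 49.97. On its right side, chr3:133599630-133601777, 54494 bp from the gene, had 18.2 in dox and 5.20 in control, a centred ratio of 1.94, and held no site. Beyond Sall4, a dox-only region of 14.3 lay 103998 bp from the gene, and a further GLI1 site 84324 bp away lay in the gap between dox-only regions of 5.95 and 3.53.

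Downstream of Sox2, at 100455 to 103472 bp from the gene, 3 weak regions of 3.88, 4.04 and 2.76 were in dox alone. A stronger dox-only region of 6.91 lay 143289 bp from Sox2, beside a shared region with a centred ratio of −0.10. Farther along Slc2a3 in the Nanog neighbourhood, control-only regions of 4.21, 2.91, 4.70 and 5.48 followed the distal ones described above. Farther out on that side, the strongest region, chr6:122810014-122812651, had 25.3 in dox and 19.6 in control, a centred ratio of 0.50.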
